A study of Heliconius himera and Heliconius erato lativitta and Heliconius erato petiverana with 18 samples.

Results

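The 43 gene IDs described here were read more often in every himera wing library than in any wing library of the 2 Heliconius erato races, out of 14612 IDs in the deposited count files. They were chosen by a rule on X, which is 1 plus the counts of an ID per 1000000 gene reads (CPM) in a library. The lowest X in the 6 himera libraries had to exceed the highest X in the 12 others, and mean himera X had to be at least 2. In addition, the lower of the forewing and hindwing libraries numbered 1 of himera had to stay under 4 times the highest of the other 4 himera libraries. Because these values chose the IDs, the difference between himera and the other taxa is given below as a description, with no test.

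The study measured messenger RNA in day 3 pupal wings, as poly-A selected RNA of whole wings from caterpillars and pupae raised at about 27 °C. The groups, each with 3 numbered libraries, were himera hindwing (HW), himera forewing (FW), lativitta HW, lativitta FW, petiverana HW and petiverana FW, where lativitta and petiverana are races of Heliconius erato. All groups shared tissue, stage and rearing, and no treatment or engineered allele is named. Neither separate animals nor pools are named for the numbered libraries, so p-values measure only a spread between libraries that may be technical.

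Heliconius himera is a close relative of H. erato from dry Andean valleys, and both hybridise where they meet. Himera carries a yellow forewing band and a red hindwing bar, petiverana a red forewing band and a yellow hindwing bar, and lativitta the rayed pattern of the Amazon basin. In the early pupa the wing is a sheet of epithelium in which scale cells differentiate, before the pigments of the adult pattern are laid down. The deposited files give 0 gene names, so IDs are printed as they stand there, and their identities, roles, positions and sequences were not analysed here.

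Libraries held 4599197 to 17002996 gene reads, and 1 read was worth 0.0588 to 0.217 CPM. The himera libraries did not form one set. Both himera number 1 libraries and the 6 petiverana libraries had 30.7% to 33.7% of their gene reads in their 10 most-read IDs and 0.453% to 0.715% of reads overlapping more than 1 feature, against 8.62% to 12.4% and 1.40% to 1.77% in himera numbers 2 and 3 and lativitta. Across all IDs, Spearman's rho of the himera number 1 libraries was 0.913 to 0.928 with petiverana and 0.874 to 0.881 with himera numbers 2 and 3. Without both himera number 1 libraries, and so without the condition on them, the rule took 440 IDs, the 43 among them. Since 1 list of IDs served every taxon, a difference between taxa can include differences in how well reads align, whose part was not tested. In whole wings, fewer cells of a type and less RNA per cell cannot be told apart.

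The first condition alone, the gap between himera and the 12 other libraries, was met by 46 IDs, 0.315% of the 14612. Of these, HEL_002864 and HEL_006102 missed the condition on the mean, with mean himera X of 1.70 and 1.48. HEL_014452 missed the condition on number 1, with 2475 CPM in himera HW 1 and 2196 CPM in himera FW 1, against 55.1 to 72.7 CPM in himera numbers 2 and 3. It is not counted among the 43. With the conditions on gap and mean alone, himera stood above all other libraries in 44 IDs, while lativitta did so in 1435 and petiverana in 133. The reverse, every library below all 12 others, was met by 17 himera, 93 lativitta and 924 petiverana IDs. These orders depend on the scale. After trimmed-mean (TMM) scaling, which multiplies each library total by a factor that brings most IDs of all libraries to a like level, 79 IDs stood above in himera, 367 in lativitta and 371 in petiverana, and 68, 315 and 369 below.

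Most of the 43 IDs were read well above the level of single reads. The mean himera level had a median of 40.3 CPM and ran from 1.35 CPM in HEL_012632 to 907 CPM in HEL_008828, with 7 IDs under 10 CPM, 21 from 10 to under 100 CPM and 15 at 100 CPM or more. CPM is not divided by transcript length, so these levels order read numbers and not transcripts per cell. In 3 IDs some himera library held under 10 reads, the lowest being 3. Summed over the 43 IDs, their share of gene reads was 0.456% to 0.751% in himera, 0.175% to 0.298% in lativitta and 0.189% to 0.218% in petiverana.

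Nearly all of the 43 IDs were also read in the other taxa. Reads were present in all 12 other libraries for 36 IDs, and 0 IDs went unread in all 12. The mean himera CPM was a median of 2.93-fold the lativitta mean over the 42 IDs with lativitta reads, from 1.38-fold to 83.7-fold, and 3.02-fold with the unread ID at its lower bound. Over petiverana the median was 4.02-fold, from 1.63-fold to 126-fold, and 4.07-fold with its unread ID at the bound. Across all IDs with mean himera X of at least 2 the medians were 0.760-fold over lativitta (9461 IDs) and 1.63-fold over petiverana (9475 IDs). Folds of at least 10 were seen in 8 IDs over lativitta and in 12 over petiverana, each count holding 1 unread ID at its lower bound.

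**Figure D1:**
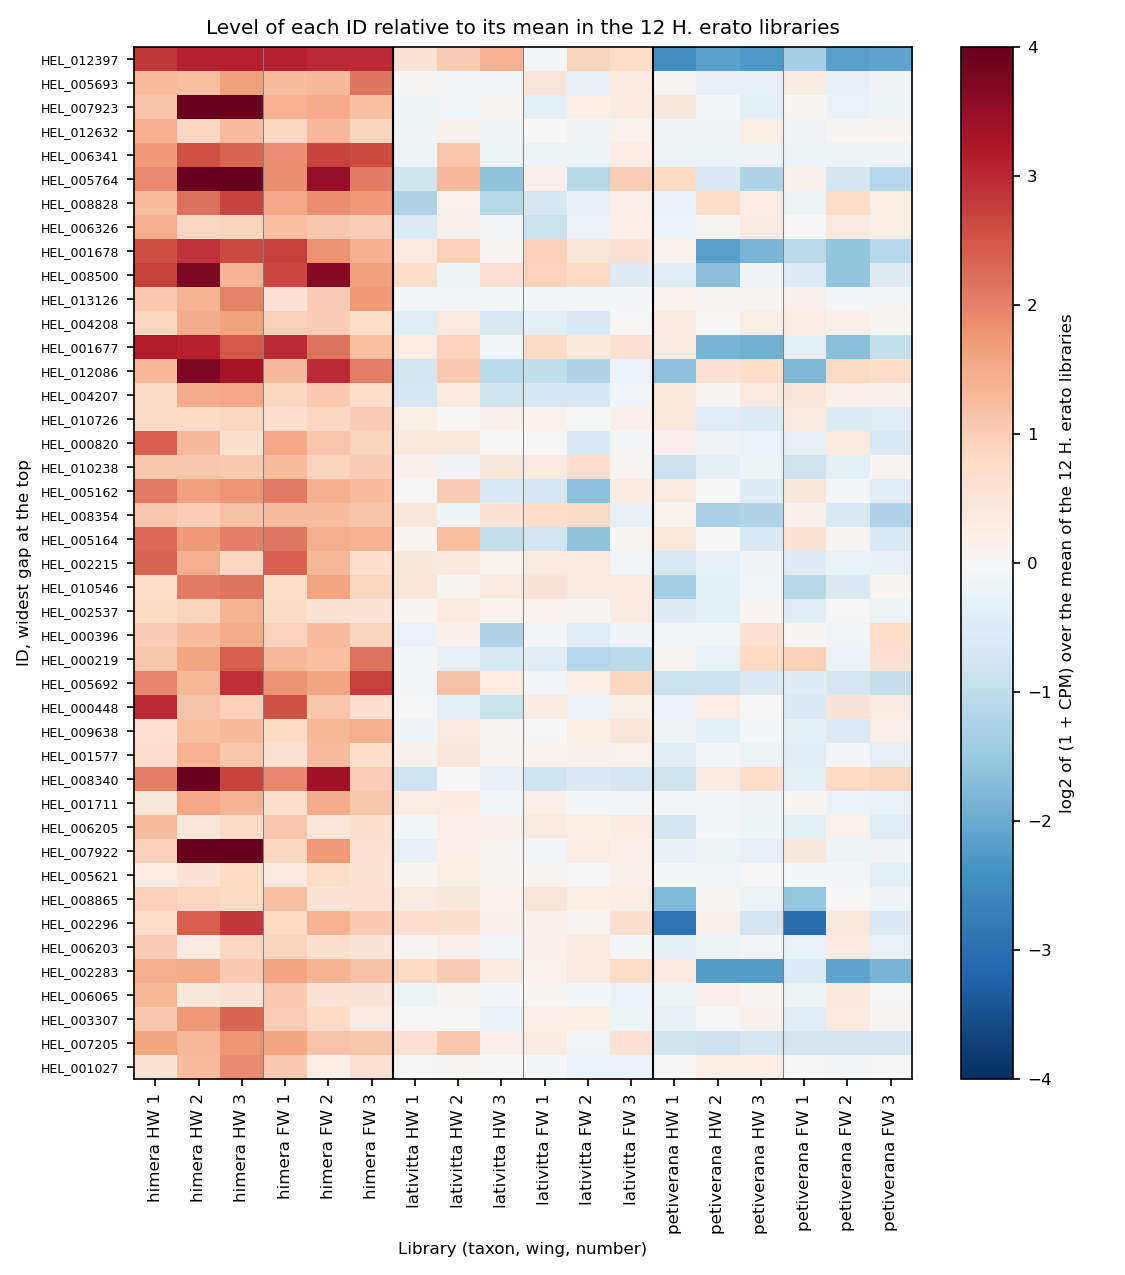
Level of the 43 IDs (rows, widest gap at the top) in the 18 libraries (columns, himera HW and FW at the left, then lativitta and petiverana), as log2 of 1 + CPM over the mean of the 12 H. erato libraries, with colours saturating at 4 either way. The himera columns are above the others in each row because the rule required it; rows differ in how evenly the 6 himera libraries share the excess.

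The gap itself was narrow in most IDs. The lowest himera X was a median of 1.14 times the highest X elsewhere, under 1.1 times in 15 IDs, at least 1.5 times in 4 and at least 2 times in 1. Just inside the limit lay HEL_001027 and HEL_007205, at 1.003 and 1.005 times. Just outside lay HEL_007232 at 0.9995 times, and HEL_000624 at 1 times, which was read only in himera HW 2 with 13.6 CPM and in himera FW 2 with 10.6 CPM. Near the limit on the mean, HEL_012632 and HEL_001027 had mean himera X of 2.35 and 2.43. Near the limit on number 1, HEL_000448 reached 2.69 times and HEL_002215 1.83 times the highest of the other himera libraries. In 28 IDs the library that came closest to himera was one of lativitta, lativitta HW 2 alone in 15, and in 15 IDs it was one of petiverana. Without lativitta HW 2 the rule took 67 IDs.

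HEL_012397 had the widest gap, 2.74 times. Its himera levels were 39.0, 46.2 and 47.7 CPM in HW and 47.2, 43.3 and 43.0 CPM in FW, in the order of the library numbers 1, 2 and 3 used throughout. In lativitta it had 7.22, 10.2 and 13.6 CPM in HW and 4.28, 9.38 and 8.22 CPM in FW, and in petiverana 0, 0.255 and 0.140 CPM in HW and 1.17, 0.242 and 0.305 CPM in FW. The 3 taxa formed 3 separate levels, with himera highest, lativitta between and petiverana near the level of single reads. Himera averaged 44.3 ± 4.63 CPM in HW and 44.5 ± 2.34 CPM in FW, lativitta 10.4 ± 3.21 and 7.29 ± 2.67 CPM, and petiverana 0.132 ± 0.128 and 0.573 ± 0.519 CPM (SD, n = 3 each). The himera mean was 5.03-fold the lativitta mean and 126-fold the petiverana mean, the second resting on 13 petiverana reads. Among the 43 IDs it was also among the steadiest within himera on plain CPM, with a highest level 1.22 times the lowest. After TMM scaling the himera number 1 libraries stood apart, at 63.1 and 72.8 CPM, against 32.8 to 38.9 CPM in numbers 2 and 3.

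HEL_005693 had the next widest gap and was a low ID throughout. Himera levels were 2.05, 1.94 and 2.91 CPM in HW and 1.99, 2.12 and 4.58 CPM in FW, from 144 reads in all. The 6 lativitta libraries held 14 reads and the 6 petiverana libraries 6, at 0 to 0.768 CPM and 0 to 0.585 CPM.

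The IDs with the highest mean himera CPM were HEL_008828 and HEL_005162. HEL_008828 had 545, 1069 and 1536 CPM in himera HW and 677, 855 and 760 CPM in himera FW. It had 101, 258 and 107 CPM in lativitta HW and 144, 188 and 268 CPM in lativitta FW, against 196, 381 and 289 CPM in petiverana HW and 205, 390 and 274 CPM in petiverana FW. The spread within himera HW was wide, since the highest of its 3 libraries lay far above the lowest, and himera HW 1 came within 1.40 times of the highest petiverana library.

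HEL_005162 ran the other way between himera libraries on plain CPM, with 1007, 744 and 813 CPM in HW and 1014, 644 and 564 CPM in FW. In lativitta it varied widely, with 243, 487 and 151 CPM in HW and 149, 75.3 and 301 CPM in FW. Petiverana had 311, 237 and 169 CPM in HW and 329, 232 and 179 CPM in FW. On plain CPM its number 1 libraries were the highest in both wings of himera, whereas those of HEL_008828 were the lowest. After TMM scaling HEL_008828 had 880, 841 and 1253 CPM in himera HW and 1045, 647 and 581 CPM in himera FW, so its number 1 libraries were no longer the lowest.

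Some IDs lay near the limit of detection outside himera, among them HEL_012632, with 3 reads in lativitta and 4 in petiverana. HEL_006341 and HEL_013126 each went unread in all libraries of 1 race. HEL_006341 had 2.78, 5.82 and 4.85 CPM in himera HW and 3.16, 6.51 and 6.03 CPM in himera FW. Of the lativitta libraries it was read only in HW 2 at 1.52 CPM and in FW 3 at 0.432 CPM, and it had 0 reads in all 6 petiverana libraries. With reads and totals pooled over libraries, its himera level was at least 69.1-fold that of petiverana. This took 3 reads over the 6 petiverana libraries as the level a count of 0 allows. HEL_013126 had 1.17, 1.71 and 3.15 CPM in himera HW and 0.585, 1.13 and 2.46 CPM in himera FW, 98 reads in all, against 0 reads in lativitta and 4 in petiverana. On the same floor its pooled himera level was at least 20.5-fold that of lativitta. These bounds cover counting error only, and for neither HEL_006341 nor HEL_013126 was alignment of the other taxa's reads tested.

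**Figure D2:**
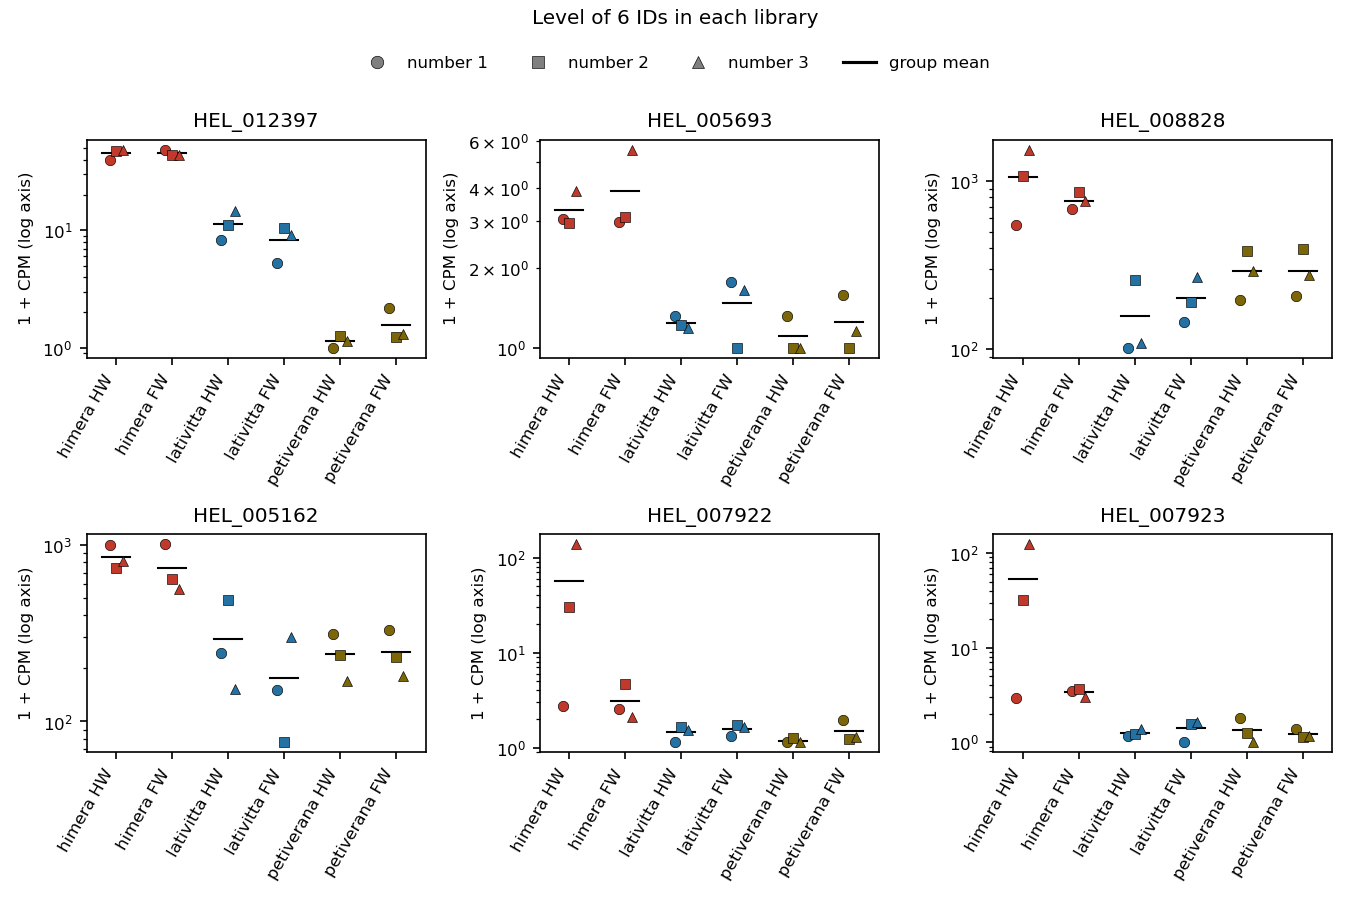
Level of 6 of the IDs in each library as 1 + CPM on a log axis, with himera HW and FW at the left of each panel, then lativitta and petiverana; marks give the library number and bars the group mean. HEL_012397 forms 3 levels, whereas HEL_007922 and HEL_007923 are high only in himera HW 2 and HW 3.

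The set depended on how libraries were scaled. Plain CPM divides by the total of gene reads, and a library with many reads in a few IDs then shows lower values for the rest. TMM factors were 0.619 to 0.648 in himera number 1, 1.23 to 1.32 in himera numbers 2 and 3, 1.33 to 1.63 in lativitta and 0.522 to 0.740 in petiverana. On the TMM scale the same rule took 79 IDs, of which 13 were among the 43, and with the median-of-ratios factors of DESeq2 it took 79, with 11 of the 43. All 30 IDs lost on the TMM scale overlapped a petiverana library and 0 overlapped a lativitta library. In all 30 the lowest himera library was then number 2 or 3. The same held for the 13 IDs that were kept, since number 1 was lowest in 0 of the 43 on that scale. In 29 of the 30 both himera number 1 libraries stayed above every petiverana library on the TMM scale, and in all 30 himera numbers 2 and 3 stayed above every lativitta library. Every lativitta factor exceeded every himera factor, so an ID above lativitta on plain CPM could not overlap it after TMM scaling. The results against lativitta on the TMM scale were therefore fixed by the rule and the factors.

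The 11 IDs kept on all 3 scales were HEL_005692, HEL_005693, HEL_006341, HEL_007205, HEL_008500, HEL_008828, HEL_009638, HEL_012086, HEL_012397, HEL_012632 and HEL_013126. They were listed after their values were seen, and some kept the gap narrowly. On the TMM scale the lowest himera X was 1.02 times the highest elsewhere in HEL_007205 and 1.05 times in HEL_008828. HEL_012632 and HEL_013126 had as few as 8 and 5 reads in a himera library. Among the 11, HEL_012086 had 102, 550 and 405 CPM in himera HW and 99.7, 326 and 164 CPM in himera FW. Elsewhere it had 16.7 to 83.3 CPM in lativitta and 10.7 to 69.8 CPM in petiverana. HEL_008500 had 31.3, 63.8 and 11.3 CPM in himera HW and 29.7, 58.5 and 14.1 CPM in himera FW, against 2.38 to 8.23 CPM in lativitta and 0.511 to 3.36 CPM in petiverana. On plain CPM the 2 wings of himera followed the same order of library numbers in both IDs.

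The mean himera level stayed above both other means on the TMM scale in all 43 IDs, although the size moved. Against lativitta this could not come out otherwise, since every lativitta factor exceeded every himera factor. Measured against lativitta as log2 of the ratio of mean X, the median of the 43 was 1.36 on plain CPM, where the median of all 9493 IDs with mean himera X of at least 2 was -0.36. On the TMM scale it was 1.87 against 0.08. Against petiverana the median of the 43 was 1.61 on plain CPM with 0.62 for all IDs, and 1.14 on the TMM scale with 0.05 for all IDs. Between libraries that resembled each other in the share of their 10 most-read IDs, the median log2 on plain CPM was 1.31 for himera number 1 over petiverana, with -0.10 for all IDs, and 1.47 for himera numbers 2 and 3 over lativitta, with -0.17 for all IDs. The rule fixed these medians above 0 on plain CPM, and against lativitta on the TMM scale too. They describe the set and show nothing beyond its choice.

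**Figure D3:**
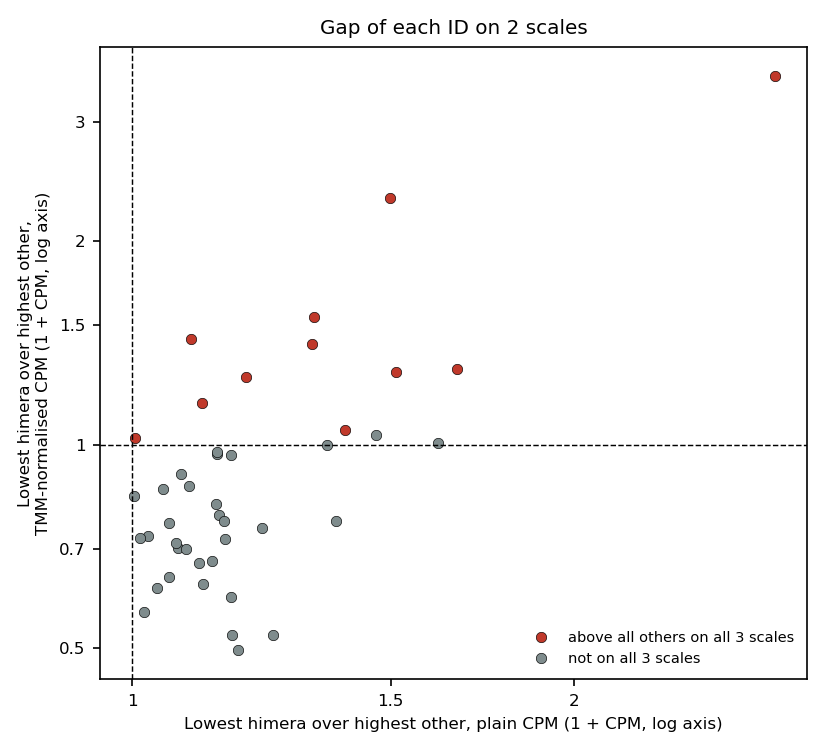
Lowest himera X over highest X of the 12 other libraries on plain CPM (horizontal, all above 1 by the rule) and after TMM scaling (vertical) for the 43 IDs. The 11 IDs in red kept the gap on all 3 scales, and 30 of the 43 fall below 1 after TMM scaling.

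Within himera the libraries differed by wing and by number, in ways that depended on the scale. The highest himera library was a median of 2.16 times the lowest on plain CPM, from 1.20 times in HEL_008354 to 123 times in HEL_007922, with 19 IDs within 2-fold and 10 over 5-fold. On plain CPM the highest value fell in a number 3 library in 21 IDs (HW 3 in 18 and FW 3 in 3), in number 1 in 14 and in number 2 in 8. After TMM scaling this order turned, with the highest value in number 1 in 28 IDs, in number 3 in 12 and in number 2 in 3. The lower TMM factors of number 1 raise it against numbers 2 and 3 in every ID. For which number was highest, no share over all IDs was taken, so these counts only describe the set. On plain CPM, HW and FW had their highest value at the same number in 24 of the 43 IDs, or 55.8% (across 9493 IDs with mean himera X of at least 2, the share was 67.3%). After TMM scaling they did so in 32 of the 43, or 74.4%, where the share over those IDs was 69.0%. HEL_002215 was highest at number 1, with 367, 200 and 130 CPM in himera HW and 385, 183 and 114 CPM in himera FW, against 47.1 to 100 CPM in the other taxa. HEL_000448 had 27.1, 6.82 and 5.94 CPM in himera HW and 20.0, 6.79 and 4.69 CPM in himera FW, against 0.908 to 4.12 CPM elsewhere. Number 1 was thus set apart in both wings of these IDs, which are the 2 nearest to the limit on number 1.

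Whether the 43 IDs differed between hindwing and forewing was tested with edgeR's quasi-likelihood test over the 9957 IDs that passed a filter on low counts, 42 of the 43 among them (HEL_001027 was left out). The rule used no difference between wings. Because 34 of the 43 pass the same filter on the 12 other libraries alone, the others among those tested entered through their himera reads, HEL_007922, HEL_007923 and HEL_003307 among them. In himera, 0 members of the set had an adjusted p under 0.05 by edgeR (background 0.0201% higher and 0% lower in HW), 4 had an unadjusted p under 0.05, all higher in HW (0.532% of IDs higher, 0.452% lower), and DESeq2 called 1.

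The 4 were HEL_007922, HEL_007923, HEL_003307 and HEL_010546, and all but HEL_010546 entered the test only through their himera reads, so nothing is read from their number against the share of all IDs. The first pair had by far the largest differences. HEL_007922 had 1.75, 29.1 and 138 CPM in himera HW and 1.52, 3.68 and 1.12 CPM in himera FW. HEL_007923 had 1.90, 31.1 and 123 CPM in himera HW and 2.46, 2.69 and 2.01 CPM in himera FW. Himera HW 2 and HW 3 were high in both IDs, while himera HW 1 lay at the level of the forewings. No library of lativitta or petiverana exceeded 0.975 CPM for HEL_007922 or 0.795 CPM for HEL_007923. The group means were 56.1 ± 71.9 CPM in himera HW and 2.10 ± 1.38 CPM in himera FW for HEL_007922, and 52.0 ± 63.2 and 2.38 ± 0.345 CPM for HEL_007923 (SD, n = 3 each), so the HW spread exceeded the HW mean.

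In log2 units HEL_007922 was higher in himera HW by 4.54 (SE 0.98), with an adjusted p of 0.977 by edgeR's quasi-likelihood test and of 0.00653 by DESeq2. The edgeR value depended on single libraries: without himera HW 1 the log2 fold change was 5.09 and it was called, at an adjusted p of 0.0210, and without himera HW 3 it was 2.71, not called. Libraries were not left out in turn with DESeq2. With the library number as a block in a fit of himera and petiverana, whose numbers pair the wings, it was 4.30 with an adjusted p of 0.0752. HEL_007923 differed by 4.14 (SE 1.07), with an unadjusted p of 0.00165 and an adjusted p of 1 by edgeR. Both IDs therefore stayed uncalled in edgeR with all libraries in.

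The other 2 IDs with a small unadjusted p had smaller differences and are given for their pattern. HEL_003307 had 2.49, 4.47 and 7.27 CPM in himera HW and 2.22, 1.84 and 1.12 CPM in himera FW, against 0.195 to 1.09 CPM in the other taxa. Its log2 difference between himera wings was 1.27 (SE 0.54), with an adjusted p of 1 by edgeR. HEL_010546 had 110, 285 and 296 CPM in himera HW and 110, 200 and 122 CPM in himera FW, and its log2 difference was 0.63 (SE 0.29), with an adjusted p of 1 by edgeR. In both IDs the wings lay close together at number 1 and apart at numbers 2 and 3. HEL_005764 shared that feature, with 14.5, 94.5 and 191 CPM in himera HW and 14.2, 46.7 and 16.5 CPM in himera FW, against 0.363 to 9.35 CPM in lativitta and 0.840 to 6.36 CPM in petiverana. It was singled out after its values were seen.

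Whether this wing difference was larger in himera than in the mean of the 2 other taxa was tested as an interaction. It gave 0 members called by edgeR (background 0% in either direction) and 0 by DESeq2, with 3 at an unadjusted p under 0.05, HEL_007922, HEL_007923 and HEL_003307, all higher (0.562% of IDs higher, 0.0904% lower). All 3 entered the test only through himera, where they are high, so this count is not set against the share of all IDs. For HEL_007922 the log2 wing difference, 4.54 for himera, was -0.24 for lativitta and -1.26 for petiverana, and the interaction 5.29 (SE 1.32, unadjusted p = 0.00131 by edgeR). For HEL_007923 the wing differences were 4.14, -0.40 and 0.82, and the interaction 3.93 (SE 1.57, unadjusted p = 0.0252 by edgeR). Outside himera these values rest on levels under 1 CPM.

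Over the 3 taxa together, 0 members were called between HW and FW by edgeR (background 0.0201% higher and 0.0201% lower), 0 had an unadjusted p under 0.05 (0.432% higher and 0.854% lower among all IDs), and DESeq2 called 0. The smallest unadjusted p-values by edgeR were 0.102 for HEL_007923, at a log2 difference of 1.52 (SE 0.87), and 0.179 for HEL_001577, at 0.20 (SE 0.14). HEL_007923 entered the test only through its himera reads, and its mean over the taxa holds the himera difference of 4.14. HEL_001577 had 254, 423 and 349 CPM in himera HW and 245, 390 and 261 CPM in himera FW, 182, 224 and 174 CPM in lativitta HW and 177, 181 and 178 CPM in lativitta FW, and 120, 150 and 140 CPM in petiverana HW and 115, 151 and 128 CPM in petiverana FW. In this ID the 2 wings overlapped in each taxon.

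As a group the 43 IDs leaned slightly to HW within himera with all libraries in. The median log2 difference of the 42 tested was 0.25, with 36 higher and 6 lower in HW, against a median of 0.00 and 49.8% higher over all IDs. Only 34 of the 43 pass the count filter on the 12 other libraries alone. The others tested, HEL_007922 and HEL_007923 among them, entered through their himera reads, so nothing is read from this lean against all IDs. The lean of the set was not tested, and IDs measured in the same libraries are not replicates. The lean was not even across library numbers. HW exceeded FW on plain CPM in 22 of the 43 IDs at number 1, in 32 at number 2 and in 35 at number 3, with median log2 differences of 0.03, 0.18 and 0.30, where 41.7%, 41.6% and 40.0% of the 9493 IDs were higher. With the library number as a block in every taxon, lativitta included, the median of the set was 0.32, with 38 higher and 4 lower. With the block in a fit of himera and petiverana only it was also 0.32, with 39 higher and 4 lower. Without both himera number 1 libraries it was 0.34, with 37 higher and 6 lower. Leaving out 1 library of that pair moved it further. Without himera HW 1 the lean reversed, to -0.16, with 19 higher and 24 lower. Without himera FW 1 the median was 0.78, with 40 higher and 3 lower. It was 0.13 without himera FW 2 and 0.04 without himera FW 3, with 25 higher and 18 lower in each. Without himera HW 2 it was 0.47, and without himera HW 3 it was 0.39.

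HW was above FW at each of the 3 numbers in 13 of the 43 IDs (background 11.3%) and below at each in 2 (background 25.2%). All 3 himera HW libraries exceeded all 3 FW libraries in 2 IDs (background 0.716%), and in 0 IDs did all 3 lie below (background 1.19%).

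**Figure D4:**
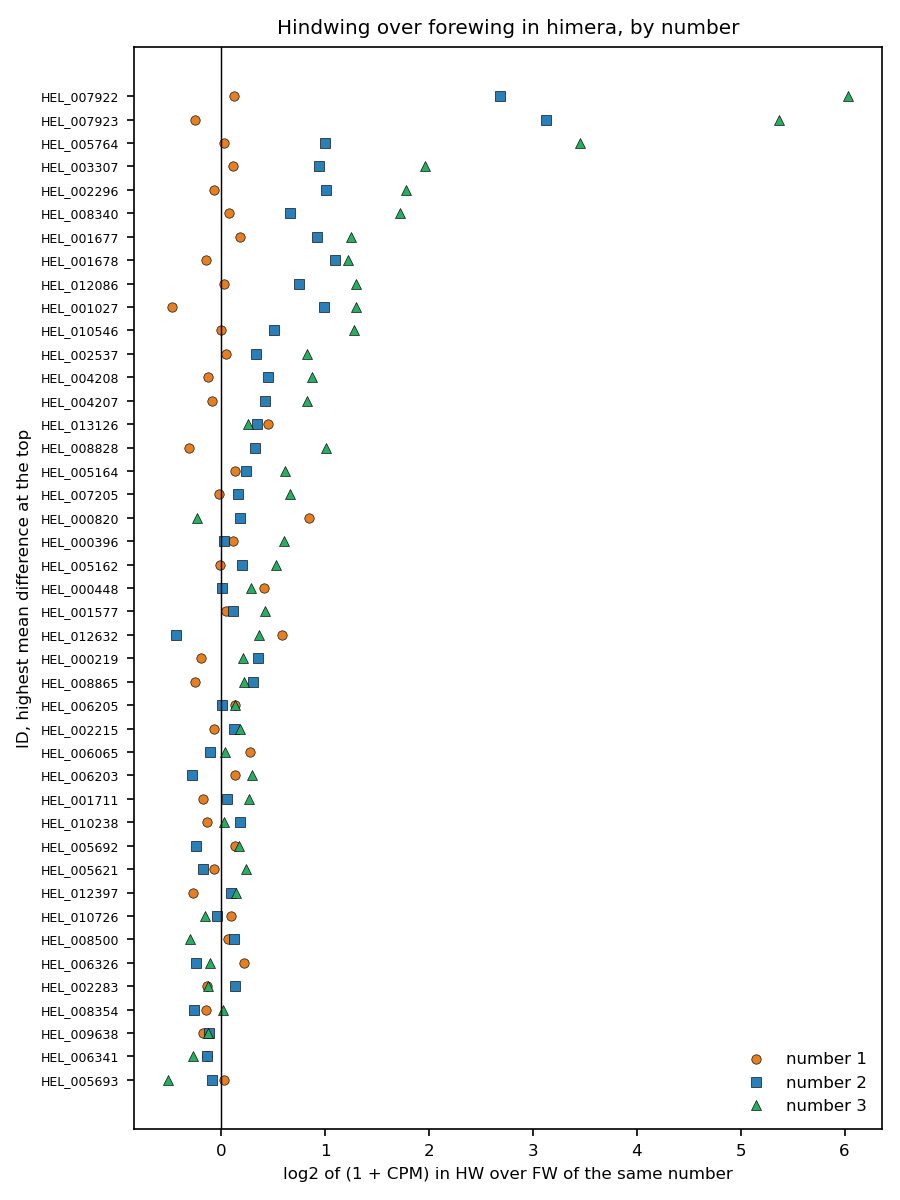
Log2 of HW over FW, as 1 + CPM, at each himera library number for the 43 IDs. Points at number 1 scatter around 0 (22 of 43 above), those at numbers 2 and 3 lie above 0 in 32 and 35 IDs, and HEL_007922 and HEL_007923 reach the highest values at number 3.

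The rule set the same ceiling, himera's lowest library, on both other taxa, and did not fix which of them lay higher below it. On plain CPM the mean was higher in lativitta than in petiverana in 28 of the 43 IDs and lower in 15, with a median log2 ratio of 0.23 where all IDs with mean himera X of at least 2 had 0.99. After TMM scaling it was higher in 9 and lower in 34, with a median of -0.48 against -0.03. The direction of the set therefore turned with the scale, and relative to the median of all IDs the set lay lower in lativitta on both scales. Since the ceiling was applied on plain CPM, where most IDs are higher in lativitta, this position is not independent of the choice of the set. All 6 lativitta libraries stood above all 6 petiverana libraries on plain CPM in 8 of the 43 IDs (background 56.7%) and below them in 0 (background 5.78%).

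By edgeR with TMM factors, in FW 1 of the 42 tested IDs was called higher in lativitta (background 11.3%) and 10 lower (background 12.7%). In HW, 1 was called higher (background 11.5%) and 8 lower (background 13.5%). Of these IDs 9 were called in both wings, and HEL_001577 and HEL_008340 in FW only. HEL_001577 shows how far the scale matters: its FW levels on plain CPM, given above, were higher in all 3 lativitta than in all 3 petiverana libraries, whereas edgeR with TMM factors called it lower in lativitta, by a log2 difference of -0.72 (SE 0.24, adjusted p = 0.0467). With no scaling factors edgeR gave 0.44, with an adjusted p of 0.174. The edgeR call was also lost without any 1 of the lativitta or petiverana FW libraries (adjusted p = 0.0712 to 0.132), and without any 1 of the lativitta HW libraries, petiverana HW 2 or HW 3, himera HW 2 or HW 3, or himera FW 2 (adjusted p = 0.0513 to 0.0656). For HEL_008340 edgeR gave -3.51 in FW, with an adjusted p of 0.0125, and 0.0588 without lativitta FW 1. With library totals and no scaling factors, FW gave 5 higher and 2 lower (backgrounds 49.7% and 7.95%) and HW gave 4 higher and 0 lower (backgrounds 47.2% and 7.18%).

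HEL_012397 was the ID called higher in lativitta in both wings, and it was called on both scales. By edgeR the log2 difference in HW was 4.99 (SE 0.73), with an adjusted p of 0.00118. In FW edgeR gave 2.55 (SE 0.61), with an adjusted p of 0.0126. With no scaling factors the FW difference was 3.72 with an adjusted p of 0.00108 by edgeR. The FW call was lost without petiverana FW 2 (adjusted p = 0.0525 by edgeR) or petiverana FW 3 (adjusted p = 0.0519 by edgeR).

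HEL_000219 and HEL_004207 were called lower in lativitta in both wings. HEL_000219 had 6.43, 9.29 and 17.2 CPM in himera HW and 7.49, 7.07 and 14.7 CPM in himera FW. It had 2.35, 1.74 and 1.27 CPM in lativitta HW and 1.54, 0.563 and 0.649 CPM in lativitta FW, against 2.70, 1.91 and 5.04 CPM in petiverana HW and 5.66, 1.94 and 4.27 CPM in petiverana FW. Lativitta and petiverana overlapped in HW and did not overlap in FW on plain CPM. The log2 difference of lativitta from petiverana by edgeR was -3.17 in FW (SE 0.58, adjusted p = 0.00384), and -2.02 with an adjusted p of 0.0126 without scaling factors. In HW it was -1.96 (SE 0.55, adjusted p = 0.0235), a call lost without any 1 of the lativitta HW libraries (adjusted p = 0.0531 to 0.0890 by edgeR), without petiverana HW 3 (adjusted p = 0.0785), and without scaling factors, where it was -0.84 with an adjusted p of 0.210 by edgeR.

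HEL_004207 had 262, 433 and 459 CPM in himera HW and 279, 322 and 259 CPM in himera FW. In lativitta it had 97.3, 198 and 88.1 CPM in HW and 95.2, 97.0 and 145 CPM in FW, against 209, 159 and 200 CPM in petiverana HW and 219, 177 and 176 CPM in petiverana FW. The log2 difference of lativitta from petiverana by edgeR was -1.72 in HW (SE 0.40), with an adjusted p of 0.0114. In FW edgeR gave -1.94 (SE 0.40), with an adjusted p of 0.00692. Without scaling factors neither was called, at -0.76 in FW (adjusted p = 0.0702 by edgeR) and -0.57 in HW (adjusted p = 0.167 by edgeR), and the HW call was also lost without lativitta HW 1 (adjusted p = 0.0550 by edgeR).

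**Figure D5:**
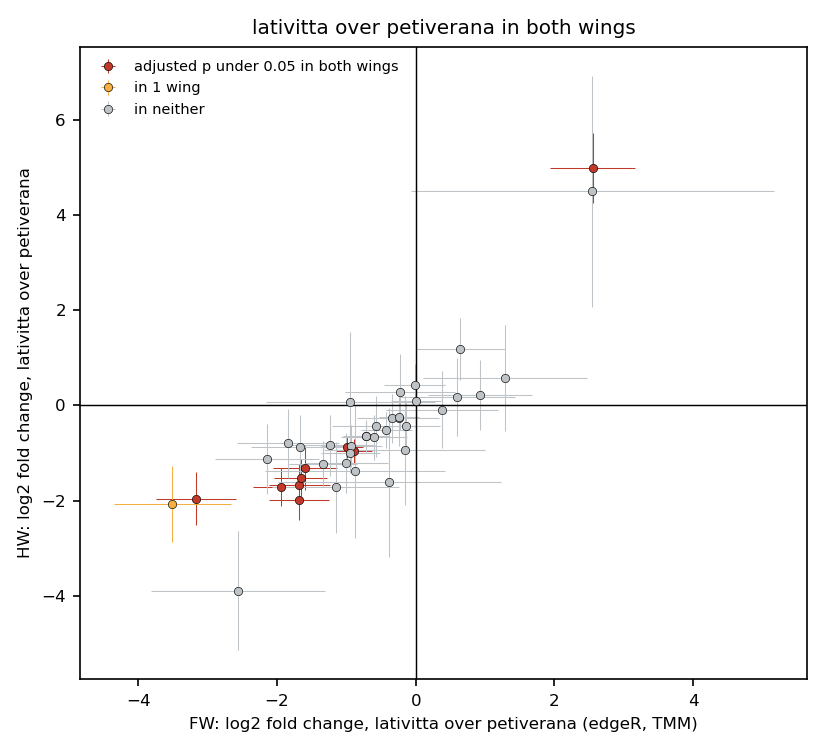
Log2 fold change of lativitta over petiverana in FW (horizontal) and HW (vertical) for the 42 tested IDs after TMM scaling, with bars of 1 SE. Most points lie below 0 in both wings. The red point at the upper right is HEL_012397, at 2.55 and 4.99, and the grey point close to it is HEL_006341, which had 0 reads in petiverana and was not called; red marks calls in both wings and orange calls in 1. On plain CPM most of the set was higher in lativitta (28 of 43 means).

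Library number also divided petiverana in some of the 43 IDs, which were singled out after their values were seen. HEL_002296 had 0.636, 13.4 and 6.58 CPM in petiverana HW and 0.585, 16.0 and 7.62 CPM in petiverana FW, so both number 1 libraries were lowest. HEL_002283 ran the other way, with 6.04, 0.128 and 0.140 CPM in petiverana HW and 2.73, 0.242 and 0.457 CPM in petiverana FW. In himera the first had 20.3, 65.8 and 89.6 CPM in HW and 21.3, 32.2 and 25.3 CPM in FW, while the second had 10.1 to 14.9 CPM over the 6 libraries. HEL_008354 and HEL_010726 had 32.0 to 38.5 CPM and 227 to 291 CPM in himera on plain CPM, and in petiverana both were highest at number 1 in HW and in FW. HEL_008354 had 17.2 and 17.8 CPM in the petiverana libraries numbered 1, against 5.74 to 9.82 CPM in numbers 2 and 3. HEL_010726 had 194 and 184 CPM in the petiverana libraries numbered 1, against 98.0 to 104 CPM in numbers 2 and 3. After TMM scaling number 1 was also highest in himera, at 55.3 and 58.7 CPM for HEL_008354, against 25.2 to 29.5 CPM in numbers 2 and 3, and at 391 and 350 CPM for HEL_010726, against 193 to 223 CPM. The petiverana mean of these IDs therefore depends on the number 1 libraries, and without both of them the rule took 58 IDs.

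Some of the 43 IDs have neighbouring numbers, a pattern picked out after the values were seen. There were 4 pairs with consecutive numbers and 2 pairs with numbers 2 apart, 12 IDs or 27.9% of the set. The files do not state what the numbering means for position in the genome, and paired IDs may share reads or features. HEL_007922 and HEL_007923, the 2 IDs with the largest wing difference, are such a pair, and their CPM ratio was 0.556 to 1.37 in the himera libraries. HEL_005162 and HEL_005164 also kept close levels, at a ratio of 0.989 to 1.15 in himera, 1.04 to 1.43 in lativitta and 1.12 to 1.37 in petiverana. HEL_005164 had 967, 661 and 822 CPM in himera HW and 883, 559 and 537 CPM in himera FW, against 64.9 to 468 CPM in lativitta and 131 to 294 CPM in petiverana.

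HEL_005163, the number between these 2, had 1760 to 3104 CPM in himera, 256 to 1782 CPM in lativitta and 381 to 789 CPM in petiverana. It missed the rule because 1 lativitta library lay above its lowest himera library. HEL_004207 and HEL_004208 had ratios of 1.25 to 1.36 in himera, 1.097 to 1.30 in lativitta and 1.33 to 1.55 in petiverana. For HEL_001677 and HEL_001678 himera ratios were 1.66 to 2.85, lativitta ratios 1.67 to 1.95 and petiverana ratios 1.95 to 3.23. HEL_006203 and HEL_006205 had himera ratios of 0.502 to 0.667, lativitta ratios of 0.422 to 0.631 and petiverana ratios of 0.525 to 0.757, and the ID between them, HEL_006204, had 0 reads in all 18 libraries. The last pair, HEL_005692 and HEL_005693, had a ratio of 3.06 to 6.83 in himera, while its ratios in the other taxa rest on a few reads. Whether the members of a pair belong to 1 transcript was not tested.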

How the data were processed

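The authors deposited raw read counts per gene ID, 1 file for each of 18 libraries, with no normalisation. Per the submitters' processing notes the tools included TopHat, bedtools and DESeq2, for which neither version nor role is stated. Build, annotation and strandedness are likewise not given in the sources used here. The 5 summary rows, 49.4% to 62.4% of reads, were left out of library sizes and tests. No 2 libraries of the same taxon and wing agreed within sampling noise (lowest chi-square per degree of freedom 15.9).

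Counts per 1000000 gene reads (CPM) were computed from the gene rows. Tests used edgeR 4.0.16 in R 4.3.3 (filterByExpr on the 6 groups, TMM, quasi-likelihood test on all 18 libraries, Benjamini-Hochberg adjustment over 9957 IDs, threshold 0.05), with a common dispersion of 0.361, 12 residual and 1.95 prior degrees of freedom. The main fit held no block for library number. DESeq2 1.42.0, other scalings and filters, blocks and left-out libraries were alternatives. The steps were tested on simulated data. The set and its lists were chosen with earlier results of these data known.

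The rule for named IDs took the 2 with the highest mean himera CPM, the 2 with the widest gap, the 2 with the smallest p in each wing comparison, up to 2 per direction called between the races in either wing, ranked by the smaller p, and the IDs nearest each limit. Others were named after their values were seen. Deviations of HW and FW libraries with the same number correlated at 0.85 to 0.92 in himera and 0.85 to 0.93 in petiverana, and at -0.53 to 0.60 in lativitta, so the numbers were taken to pair the wings in himera and petiverana only. Planned gene lists and marker lists were not run, since the files pair the IDs with 0 names.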

Additional observations from a re-analysis of the deposited data

How the results depend on the processing

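Under the rule, 43 IDs became 79 with TMM factors, 79 with DESeq2 size factors, 1 when the gap had to be 2-fold, 440 without both himera number 1 libraries, and 43 to 67 when 1 library was left out. Members called between HW and FW in himera numbered 0 in edgeR, 1 in DESeq2 and 0 to 1 with 1 library left out (1 without himera HW 1). Over the 3 taxa and for the interaction they stayed at 0 with any 1 library left out. With a replicate block the count called between wings was 0 in each of these comparisons. That block also paired the wings by number in lativitta, where the numbers were not taken to pair them.

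Between lativitta and petiverana, 11 members were called in FW, 4 to 13 with 1 library left out (5 without lativitta FW 1, 4 without lativitta FW 2, 6 without petiverana FW 2, 7 without petiverana FW 3), 19 without both himera number 1 libraries and 7 without scaling factors. In HW 9 were called, 2 to 11 with 1 library left out (2 without lativitta HW 1, 3 without lativitta HW 3), 15 without both himera number 1 libraries and 4 without scaling factors. The replicate block gave 14 and 13, where the numbers do not pair the races (correlations -0.07 to 0.06). The cause of these changes was not tested. Among the named IDs with a tested value, 1 result turned its direction, HEL_001577 between lativitta and petiverana in FW, at a log2 difference of -0.72 with TMM factors and 0.44 with no scaling factors. IDs with under 10 reads in a himera library are limited by depth.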
